A study of Mus musculus with 6 samples.

Results

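The replication-dependent and linker histone genes of the mouse were followed in quadriceps muscle of HSALR and WT mice. Members were the protein coding genes whose symbol names an H1, H2A, H2B, H3 or H4 gene of the clustered nomenclature (H1f, H2ac, H2bc, H3c and H4c followed by a number), and 73 of the 53947 genes in each deposited table met this rule. They were 11 H1, 18 H2A, 19 H2B, 12 H3 and 13 H4 genes, of which 54 lie on chromosome 13, 10 on chromosome 3, 4 on chromosome 11, 3 on chromosome 6 and 2 on chromosome 15 (GRCm39). A further 3 pseudogenes that match the same name pattern were left out.

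The series held 3 HSALR and 3 WT libraries of total RNA from quadriceps of mice aged 12 weeks, depleted of ribosomal RNA and not selected for poly(A). HSALR mice carry a human skeletal actin gene with an expansion of about 220 CTG repeats, a model of myotonic dystrophy in which the repeat RNA binds MBNL splicing factors, whereas WT mice lack it. The gene placed in the transgene is the actin of skeletal muscle fibres, and the labels name neither the strain nor the litters. Samples are numbered 1 to 3 in each group without a statement that different animals were used, and p-values therefore measure the spread between these samples, which may be technical.

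Histones are the proteins around which DNA is wound. H2A, H2B, H3 and H4 build the nucleosome core, and H1 binds the linker DNA between cores. The replication-dependent genes are transcribed mainly in S phase, when new chromatin is assembled. Their mRNAs normally end in a stem-loop in place of a poly(A) tail, and the stem-loop is bound by SLBP, which is needed for 3′ end formation, translation and decay of the message. Mature muscle fibre nuclei do not divide, and the replication-independent linker histone H1.0, encoded by H1f0, accumulates in cells that have left the cycle.

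The 150 bases after the stop codon of each gene's representative transcript (Ensembl canonical) were searched, on the sense strand only. GG, any 2 bases, CTT, any base, T, any base, A, any 3 bases and CC were required in this order. The stem-loop was found in 63 of the 73 members, against 0.372% of 21530 coding genes in GENCODE M39 (80 genes, the members included). The 10 members without a match were H1f0, H1f10, H1f7, H1f8, H1f9, H2ac22, H2bc21, H2bc22, H2bc23 and H2bc24. The representative transcripts of H2bc22, H2bc23 and H2bc24 have coding lengths of 414, 402 and 402 bases, against 378 in most H2B genes. Other transcripts of these genes, which may have another stop codon, were not searched. The sequences of the 7 members that passed the test described further on are shown 5′ to 3′ on the coding strand, as DNA from GRCm39, with the 16-base stem-loop in capitals and 5 flanking bases on either side. They show the 4 forms of the element that these genes carry.
H4c8: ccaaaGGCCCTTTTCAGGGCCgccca
H4c3: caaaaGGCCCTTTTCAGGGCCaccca
H4c1: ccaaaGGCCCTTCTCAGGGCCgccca
H2ac19: aaaaaGGCTCTTTTCAGAGCCaccca
H2bc6: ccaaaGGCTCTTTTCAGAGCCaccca
H3c7: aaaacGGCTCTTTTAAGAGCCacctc
H3c6: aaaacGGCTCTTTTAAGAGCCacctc
The capitals stand at chr13:23715628-23715643 (plus strand) in H4c8, chr13:23882072-23882087 (minus) in H4c3, chr13:23944783-23944798 (minus) in H4c1 and chr3:96147100-96147115 (minus) in H2ac19. In H2bc6 they stand at chr13:23769514-23769529 (minus), in H3c7 at chr13:23729102-23729117 (plus) and in H3c6 at chr13:23746077-23746092 (minus). All 7 lie in the 3′ UTR. The element of H2ac19 and H2bc6 was shared by 39 members of 4 types (H1, H2A, H2B and H3), that of H3c7 and H3c6 by 9 members, and that of H4c8 and H4c3 by 8 members, all H4. The element of H4c1 was found in no other member, and H4c9, an abundant H4 gene, had a further form (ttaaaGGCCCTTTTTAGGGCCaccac, chr13:22225136-22225151, minus strand) shared with H4c14. All 8 forms found among the members pair in 6 of 6 stem positions.

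The annotated transcripts differed in where they end. Of the 63 members with a stem-loop, 22 have an annotated end within 100 bases after it, 24 run more than 100 bases past it, and in 17 the annotation stops before it. Of the 24 that run past it, 11 have AATAAA in their last 40 bases, a hexamer present at that place in 54.8% of 21593 coding transcripts. The annotated ends set the deposited transcript lengths and were not measured in these libraries.

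Of the 73 members, 64 had counts in at least 1 library, 42 had counts in every library and 34 had a mean expected count of at least 10 (4 H1, 5 H2A, 9 H2B, 6 H3 and 10 H4 genes). Listed at 0 in every library were 9 members. They were H1f6 and H1f7, linker histones of the testis, H1f8, the linker histone of the oocyte, H1f9, a spermatid linker histone, the testis core histones H2ac1 and H2bc1, and H2bc26, H3c14 and H4c17. The library totals were 11468959 to 13220792 counts in HSALR and 14048603 to 15023710 in WT, with 3 counts taken as the detection floor of a library. CPM are counts scaled to a common library total, with the totals adjusted by TMM, and on this scale the floor was 0.201 to 0.285 CPM in HSALR and 0.198 to 0.223 CPM in WT. The members took 6354 to 7820 counts of each HSALR library and 5238 to 5635 counts of each WT library.

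The libraries differed in composition in ways that move with the group. 7SL and 7SK RNA, abundant short non-coding RNAs, took 43.9%, 18.8% and 24.0% of the counts of HSALR replicates 1, 2 and 3, against 14.2%, 14.1% and 15.5% in WT. The mean fragment length was 157, 165.5 and 159.5 bases in HSALR and 164.4 to 165.0 in WT. HSALR replicate 1 stood apart in its share of 7SL and 7SK RNA. It was also the library with the highest level for 21 of the 32 members tested, so the counts of members are given with and without it.

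Per length, the histone mRNAs were led by an H4 and an H2A gene. In the deposited TPM (transcript abundance, corrected for length), H4c8 had 49.5, 70.0 and 80.7 in HSALR and 40.5, 45.5 and 43.6 in WT. H2ac19 had 34.5, 59.1 and 56.7 TPM in HSALR and 35.9, 43.4 and 41.2 in WT. These 2 genes stood above all other members in every library on this scale. Below them, averaged over the 6 libraries, came H2bc4 (27.5 TPM), H4c9 (25.9) and H1f2 (24.6), whose ranges over libraries overlapped, then H4c3 (20.1) and H1f0 (16.7). Of the H3 genes, none was among the 12 members of highest TPM.

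In CPM summed over the members of a type, all 5 histone types were higher in HSALR muscle than in WT muscle, with no overlap between the libraries. Among single genes, 17.8% of all tested had every HSALR library above every WT library. Of the 73 members, 60 share at least 1 stretch of 75 bases with another member, and RSEM divides the reads of such stretches between genes, which a sum over a type does not depend on where the sharing stays within the type. That condition fails in part, because 36 members share such a stretch with a gene that is not a member (17 H2A, 12 H3, 5 H2B, 1 H1 and 1 H4 genes). For every H3 gene this is Gm20634, and for H2ac19 it includes H2ax and Gm20634. H2bc6, an H2B gene, and H1f4, an H1 gene, also share such stretches. The H4 sum was 234, 150 and 169 CPM in the HSALR libraries, against 106, 108 and 114 CPM in WT. The H2A sum was 92.4, 67.1 and 79.0 CPM in HSALR and 43.2, 46.5 and 46.5 CPM in WT. HSALR replicate 1 had the highest value in both types, and the lowest HSALR library still lay above the highest WT library. The H3 sum, the lowest of the 5, was 24.7, 18.2 and 17.0 CPM in HSALR and 12.3, 10.9 and 10.2 CPM in WT. The ratio of the group means was 1.69 for H4, 1.75 for H2A and 1.79 for H3, and was smaller for H2B (1.29) and H1 (1.26). The H2B sum was 98.9 ± 7.15 CPM in HSALR and 76.8 ± 2.27 CPM in WT, and the H1 sum was 173 ± 8.60 CPM in HSALR and 138 ± 5.28 CPM in WT (SD, n = 3 each). These sums are given as a description, and whether the ratios differ between types was not tested.

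**Figure D1:**
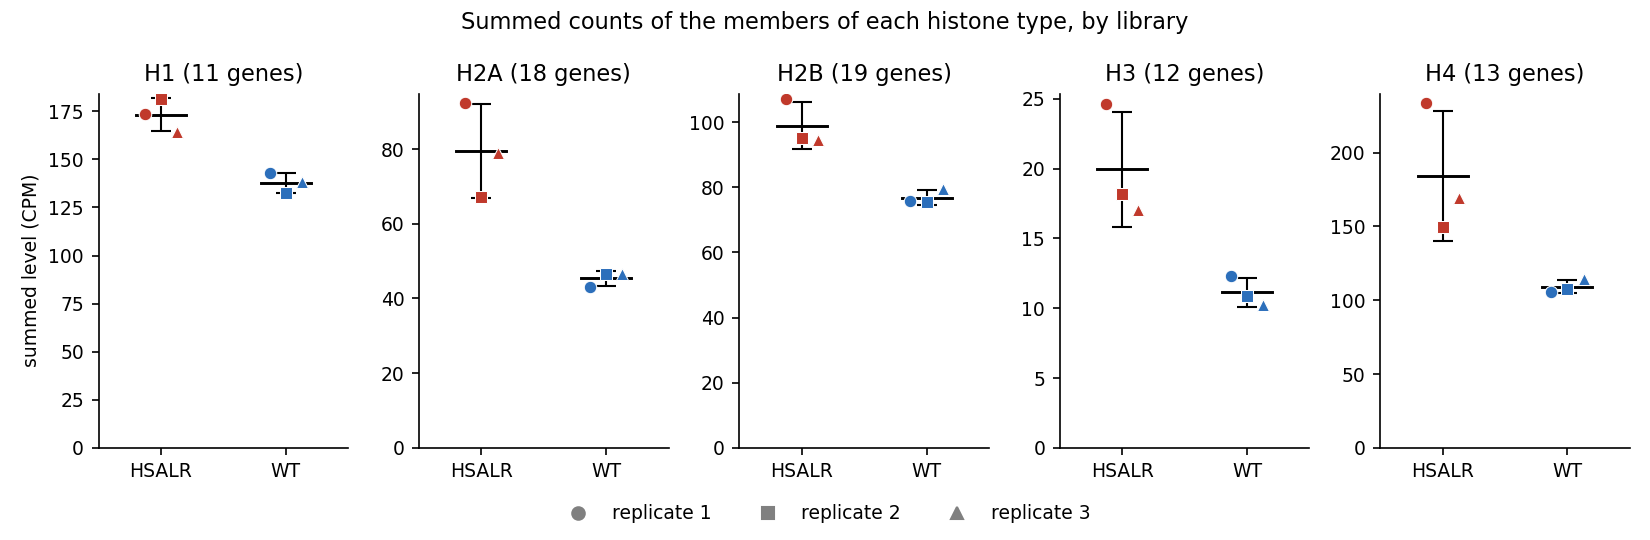
Summed level of all members of each histone type (y axis, CPM, starting at 0) in HSALR and WT muscle, with 1 point per library, symbols for the replicate number and bars for the mean and SD of 3 libraries. In each of the 5 types the 3 HSALR libraries sit above the 3 WT libraries, for example 150 to 234 CPM against 106 to 114 CPM for H4. The same was seen in 17.8% of all single genes tested.

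On the deposited TPM scale the sums did not separate the groups. The H4 sum was 120, 166 and 174 TPM in HSALR, against 127, 137 and 133 TPM in WT. The H1 sum was 27.6, 59.1 and 49.1 TPM in HSALR, against 52.6, 51.5 and 48.7 TPM in WT. In each of the 5 types the ranges overlapped, HSALR replicate 1 was the lowest library or level with the lowest, and the ratio of means was below 1 for H1 (0.888) and H2B (0.957). TPM are scaled to a fixed sum that includes the short 7SL and 7SK RNAs. Whether these RNAs give the overlap on this scale was not tested. On the log2(TPM + 0.1) scale the median log2 fold change of all genes tested was -0.46, against 0.04 on TMM-scaled counts. The members' median on the log2(TPM + 0.1) scale was 0.07, which is 0.53 above that of all genes. On TMM-scaled counts it was 0.61 above.

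Gene by gene, 7 of the 32 members that passed the filter on low counts were called higher in HSALR muscle (21.9%; edgeR quasi-likelihood F test, Benjamini-Hochberg adjusted p below 0.05 over 13576 genes), and none was called lower. Of all genes tested, 4.28% were called higher and 7.48% lower. The 7 were H4c8, H4c3 and H4c1, H3c7 and H3c6, H2ac19 and H2bc6. At an unadjusted p below 0.05 there were 18 of 32 members (31.9% of all genes, either direction), all 18 of them with a positive log2 fold change. DESeq2 called 13 members higher (40.6%, against 8.57% of all genes) and limma-voom 4 (12.5%, against 3.35% of all genes), and likewise none lower. The log2 fold change was positive in 29 of 32 members (52.9% of all genes), and its median was 0.65, against 0.04 over all genes tested. In 19 of 32 members (59.4%) every HSALR library lay above every WT library, as it did in 17.8% of all genes.

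The count of 7 depended on the library left out. It was 5 without HSALR replicate 1, of which 4 (H4c8, H4c3, H3c7 and H2ac19) were among the 7. It was 15 without HSALR replicate 2 and 1 without HSALR replicate 3. Without WT replicate 1, 2 or 3 it was 1, 1 and 2. In those fits 46, 49 and 50 of all genes were called higher (0.339%, 0.361% and 0.368%). Without HSALR replicate 1 the members called were fewer (15.6%, against 21.9%), whereas more of all genes were called higher (837, or 6.17%, against 581). Without HSALR replicate 2 both counts were larger (1505 of all genes) and without HSALR replicate 3 both were smaller (46 of all genes). The log2 fold change was positive in 26 of 32 members without HSALR replicate 1 and in 29 or 30 in the other 5 fits. H4c8 was called in all 6 of these fits, and the members' median stayed between 0.47 and 0.75.

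**Figure D2:**
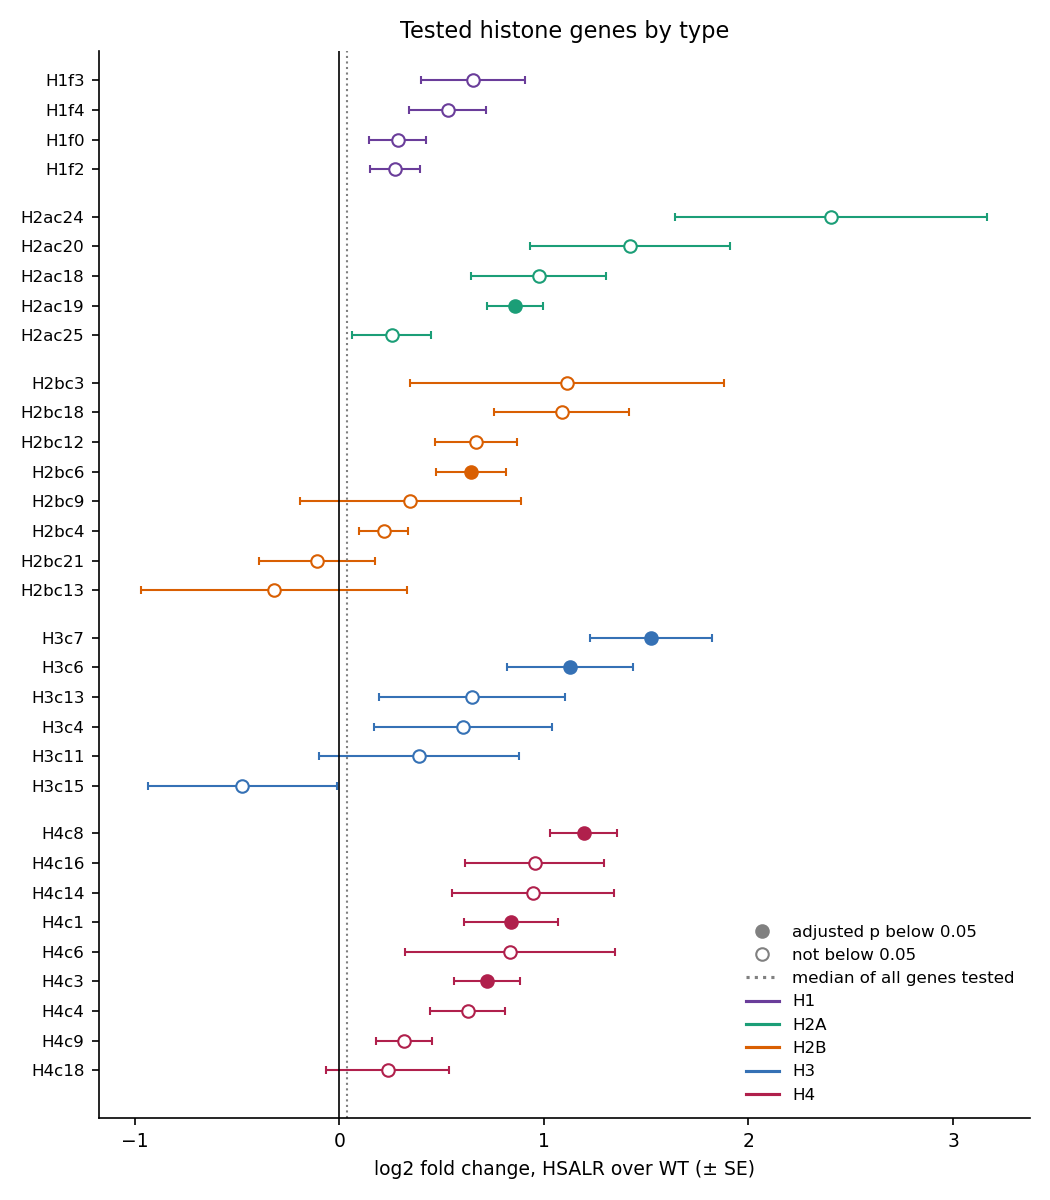
Fitted log2 fold change of HSALR over WT (x axis, with SE bars) for the 32 members tested, grouped by histone type and ordered within each. Filled points passed the test, and 29 of 32 points lie above 0, with H3c15, H2bc13 and H2bc21 below it.

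Histone H4, whose many genes encode nearly all the same core protein, gave 3 of the 7 calls. All 9 tested H4 genes had a positive log2 fold change (median 0.84). H4c8 (ENSMUSG00000060981, chr13:23715220-23715689) had 59.9, 40.2 and 51.0 CPM in HSALR libraries, against 20.7, 22.0 and 23.3 CPM in WT libraries. It was 2.29-fold higher in HSALR (log2 fold change 1.19 ± 0.16 SE, edgeR adjusted p = 0.00572). The lowest HSALR library was well above the highest WT library, and the call held in 16 of 17 alternatives, the exception being TPM. H4c3 (ENSMUSG00000060678, chr13:23881618-23882437) had 41.8, 29.0 and 32.1 CPM in HSALR, against 21.3, 18.9 and 22.1 CPM in WT. The groups did not overlap, and the log2 fold change was 0.72 ± 0.16 (edgeR adjusted p = 0.0264). H4c1 (ENSMUSG00000060093, chr13:23944666-23945650) had 16.0, 9.15 and 10.4 CPM in HSALR, against 6.53, 6.41 and 6.92 CPM in WT. Here HSALR replicate 1 was far above the other 2 HSALR libraries, which were themselves above WT (log2 fold change 0.84 ± 0.23, edgeR adjusted p = 0.0460, and 0.0534 without HSALR replicate 1).

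The other abundant H4 genes did not pass the test. H4c9 had 34.2, 34.6 and 27.9 CPM in HSALR and 24.2, 25.7 and 27.7 CPM in WT, so that the groups all but touched (log2 fold change 0.32 ± 0.14, edgeR adjusted p = 0.145). H4c16, on chromosome 6 outside the large clusters, had 38.3, 14.8 and 17.7 CPM in HSALR and 11.6, 12.4 and 12.3 CPM in WT. Its log2 fold change of 0.96 ± 0.34 (edgeR adjusted p = 0.102) rested largely on HSALR replicate 1 and was 0.44 without it. H4c4 was nearest to the threshold of all uncalled members (log2 fold change 0.63, edgeR adjusted p = 0.0564).

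Histone H3, the core histone whose tail carries many of the regulatory marks of chromatin, had the member with the largest log2 fold change among those called. H3c7 (ENSMUSG00000100210, chr13:23728222-23729482) had 7.17, 4.52 and 6.16 CPM in HSALR, against 2.62, 1.95 and 1.58 CPM in WT. Its libraries did not overlap between the groups (log2 fold change 1.52 ± 0.30, edgeR adjusted p = 0.0167). H3c6 (ENSMUSG00000069273, chr13:23745708-23746543), which carries the same stem-loop and flanks, had 6.93, 4.60 and 4.02 CPM in HSALR, against 2.65, 2.57 and 1.80 CPM in WT. It was 2.19-fold higher (log2 fold change 1.13 ± 0.31, edgeR adjusted p = 0.0465, and 0.0732 without HSALR replicate 1). The remaining H3 genes were low. H3c4 had 2.27 ± 0.302 CPM in HSALR and 1.48 ± 0.723 CPM in WT, and H3c11 had 1.72 ± 1.07 CPM in HSALR and 1.29 ± 0.232 CPM in WT (SD, n = 3 each). Neither was called (edgeR adjusted p = 0.362 and 0.611), and the log2 fold change of H3c11 turned negative without HSALR replicate 1 (-0.21). H3c15, with a log2 fold change of -0.48, was the lowest of the 32 and was not called either.

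**Figure D3:**
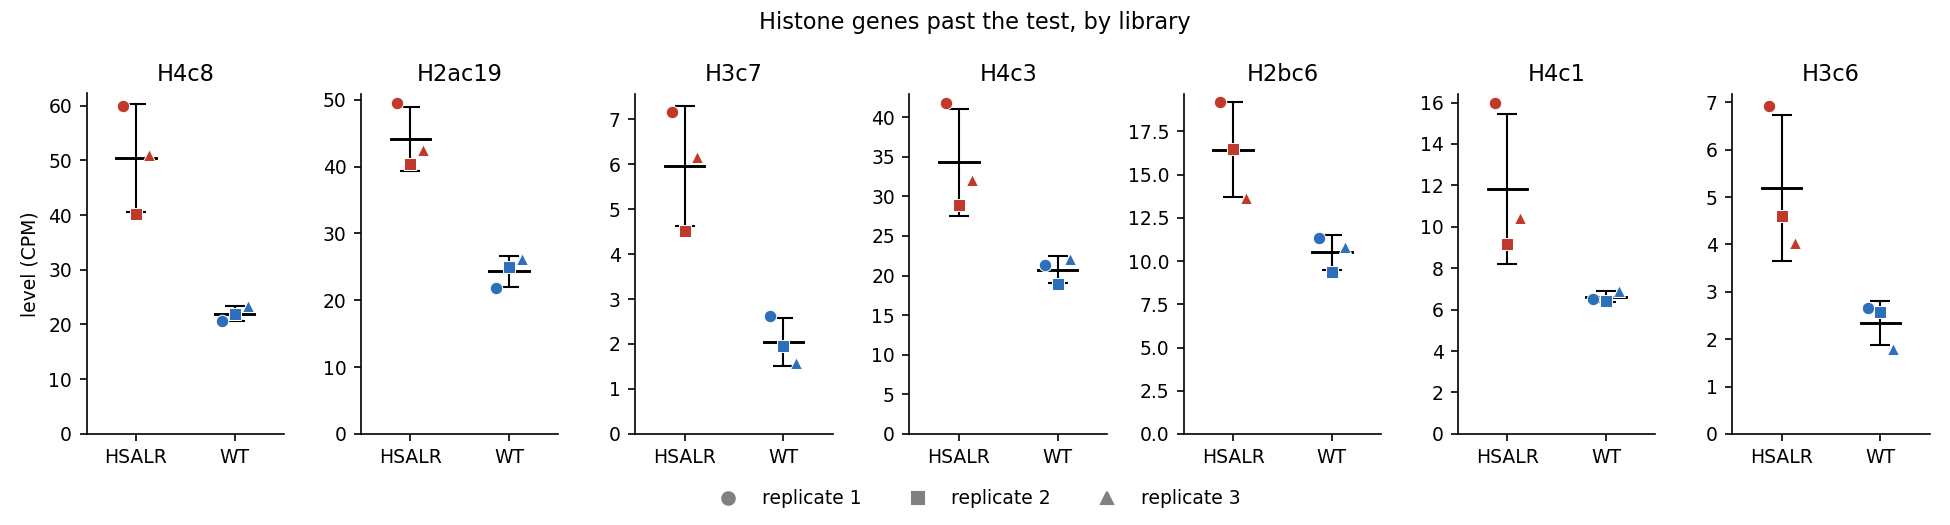
Level of each of the 7 members that passed the test (y axes in CPM, each starting at 0) in HSALR and WT muscle, ordered by p, with 1 point per library, symbols for the replicate number and bars for the mean and SD of 3 libraries. In all 7 genes the lowest HSALR library lies above the highest WT library, and HSALR replicate 1 is the highest point in each.

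Of the H2A genes, whose product pairs with H2B in the nucleosome, H2ac19 held 54.8% of the counts of the type and was the member called. H2ac19 (ENSMUSG00000063954, chr3:96147065-96147592) had 49.5, 40.4 and 42.4 CPM in HSALR, against 21.8, 24.9 and 26.2 CPM in WT. It was 1.81-fold higher (log2 fold change 0.86 ± 0.14, edgeR adjusted p = 0.00972), with no overlap. No stretch of 75 bases of its transcript is unique to it, so the reads counted for H2ac19 could come from other H2A genes. H2ac18, close by on chromosome 3, had 20.9, 8.64 and 19.7 CPM in HSALR and 7.51, 10.3 and 7.22 CPM in WT. HSALR replicate 2 lay within the WT range, and H2ac18 was not called (log2 fold change 0.97 ± 0.33, edgeR adjusted p = 0.0865). H2ac20 had 3.27 ± 1.79 CPM in HSALR and 1.20 ± 0.269 CPM in WT, and H2ac25, on chromosome 11, had 10.4 ± 2.14 CPM in HSALR and 8.72 ± 0.550 CPM in WT (SD, n = 3 each). Neither was called (edgeR adjusted p = 0.0847 and 0.382). H2ac24 had the largest fitted log2 fold change of the 32, 2.40 ± 0.76, at levels of 2.58, 1.69 and 1.16 CPM in HSALR and 0, 0.426 and 0.614 CPM in WT, and was not called (edgeR adjusted p = 0.0695). Of its stretches of 75 bases, 7.35% are unique to it. H2ac23, which shares stretches with it, had 0.549 CPM in WT replicate 1, where H2ac24 had 0, and 0 in every other library. Whether the division of shared reads gave the 0 of H2ac24 was not tested.

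The H2B genes differed less. H2bc4, the most abundant, with 61.0% of the counts of the type, had 56.3, 58.5 and 58.1 CPM in HSALR and 45.8, 50.4 and 52.5 CPM in WT. The groups were close without overlapping, and the gene was not called (log2 fold change 0.22 ± 0.12, edgeR adjusted p = 0.241). H2bc6 (ENSMUSG00000047246, chr13:23766595-23805139) had 19.2, 16.5 and 13.7 CPM in HSALR, against 11.4, 9.38 and 10.8 CPM in WT, with no overlap (log2 fold change 0.64 ± 0.17, edgeR adjusted p = 0.0443). This call was lost in 10 of 17 alternatives, among them the fit without HSALR replicate 1 (edgeR adjusted p = 0.0535). The H2bc6 and H1f4 loci overlap on the same strand over 528 bases, and reads from that stretch cannot all be told apart. H2bc6 is also among the few members with more than 1 transcript in the tables. Its abundance-weighted transcript length was 2379, 2319 and 2369 bases in HSALR and 2291, 2269 and 2302 bases in WT, longer in every HSALR library. H2bc12 had 7.53 ± 1.16 CPM in HSALR and 4.71 ± 0.205 CPM in WT, and H2bc18, on chromosome 3, had 7.20 ± 3.20 CPM in HSALR and 3.36 ± 0.655 CPM in WT (SD, n = 3 each). Both lay just outside the threshold (edgeR adjusted p = 0.0594 and 0.0614). H2bc21, with no stem-loop by the search used, was not called (edgeR adjusted p = 0.817), at 3.01 ± 0.722 CPM in HSALR and 3.26 ± 0.204 CPM in WT (SD, n = 3 each).

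The linker histones, which bind DNA where it enters and leaves the nucleosome, had no called member among the 4 tested, although all 4 had a positive log2 fold change (median 0.41). H1f2, the gene for H1.2, had 73.1, 78.5 and 71.2 CPM in HSALR, against 63.3, 57.6 and 63.3 CPM in WT (log2 fold change 0.27 ± 0.12, edgeR adjusted p = 0.157). H1f0, a replication-independent linker histone, had 59.7, 78.8 and 64.5 CPM in HSALR, against 57.1, 55.4 and 54.0 CPM in WT (log2 fold change 0.29 ± 0.14, edgeR adjusted p = 0.190). In both genes all HSALR libraries lay above all WT libraries, and for H1f0 the highest was HSALR replicate 2 and not replicate 1. H1f4, the gene for H1.4, had 30.2, 18.2 and 22.0 CPM in HSALR and 17.2, 15.3 and 16.1 CPM in WT (log2 fold change 0.53 ± 0.19, edgeR adjusted p = 0.0923). H1f3, the gene for H1.3, had 6.06 ± 1.39 CPM in HSALR and 3.84 ± 0.631 CPM in WT (SD, n = 3 each; edgeR adjusted p = 0.115). H1f10, another replication-independent linker histone, had 0.285, 0.0806 and 0.536 CPM in HSALR and 0, 0.0661 and 0 CPM in WT, above the detection floor in HSALR replicate 3 only, and was not tested.

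The 41 members that were not tested added little to the sums. They held 9.35% of the counts of the H3 genes and 4.73% or less of those of the other types, and none exceeded 2.12 CPM in any library. Of the 34 members with a mean expected count of at least 10, H2bc8 and H4c2 did not pass the filter, which asks for a minimum count in each of several libraries.

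Reads shared between members are divided by estimation. Members of the same type that share a 75-base stretch were therefore also summed to 1 feature before a second fit over 13554 features. Stretches shared between H1f4 and H2bc6, or with genes that are not members, were not merged. Of the 10 histone features in this fit, 3 were called higher and none lower, where 4.26% of all features were called higher. These were the sum of 17 H2A genes (log2 fold change 0.81 ± 0.15), that of 12 H3 genes (0.83 ± 0.18) and that of 11 H4 genes (0.72 ± 0.16). The sum of 15 H2B genes (0.34 ± 0.12) and that of H1f2, H1f3 and H1f4 (0.35 ± 0.13) were not called. The same 3 sums were called without HSALR replicate 1, 7 features were called without HSALR replicate 2, and none without HSALR replicate 3 or any WT replicate. Of all 13554 features, 837, 1495 and 45 were called higher without HSALR replicate 1, 2 and 3. Without WT replicate 1, 2 and 3 these counts were 45, 48 and 42. No histone feature was called once the trend of expression on transcript length was removed, when 319 of all features were called higher.

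Short transcripts as a class were higher in the HSALR libraries, and histone mRNAs are short. The median deposited length of the 32 members was 828 bases, against 2333 bases over all genes tested. Of 17 members under 1000 bases, 5 were called higher and the median log2 fold change was 0.84. Of 1005 coding genes under 1000 bases, the members included, 14.5% were called higher and the median was 0.35. The members were shorter within this class. Under 500 bases, 1 of 9 members was called, against 24.7% of 73 coding genes (medians 0.67 and 0.52). From 500 to 1000 bases, 4 of 8 members were called, against 13.7% of 932 coding genes (medians 0.92 and 0.33). Of 15 members of at least 1000 bases, 2 (H3c7 and H2bc6) were called higher and the median was 0.53. Of 11293 coding genes of that length, 3.28% were called higher and the median was 0.00. Of the 32 members, 26 lay above the median of the coding genes of their own length class. With each library's trend on length removed, 2 members (H4c8 and H3c7) were called (6.25%, against 2.37% of all genes). In that fit 25 of 32 had a positive log2 fold change and the median was 0.40, against -0.04 over all genes. With an offset from the deposited effective lengths, 3 members (H4c8, H3c7 and H2ac19) were called (9.38%, against 1.86% of all genes) and the median was 0.63. How much of the difference follows transcript length beyond these fits was not tested.

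**Figure D4:**
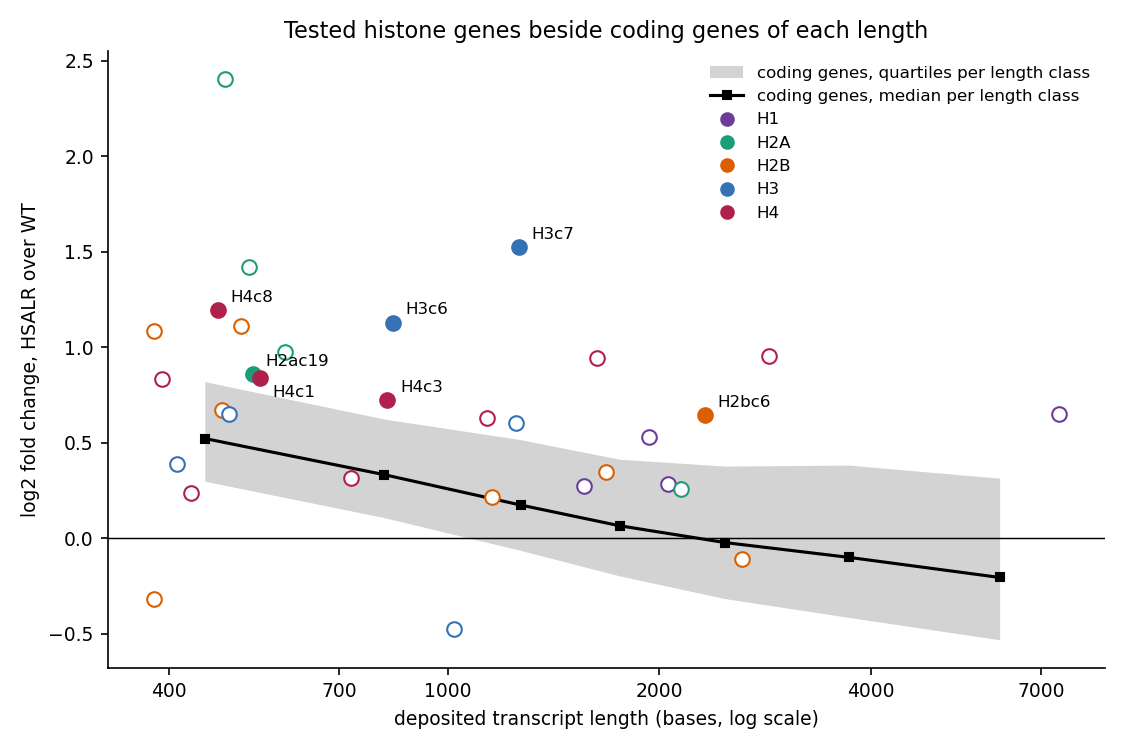
Log2 fold change of HSALR over WT (y axis) against deposited transcript length in bases (x axis, log scale) for the 32 members tested, filled where they passed the test, with the median (line) and quartiles (grey band) of coding genes in 7 length classes. The line falls with length, and 26 of 32 members lie above the median of their class.

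Among the tested members, the 9 whose annotation ends within 100 bases after the stem-loop had a median log2 fold change of 0.97, with 2 called. The 17 that run past it had a median of 0.63, with 5 called. The 4 whose annotation stops before it (H2bc13, H2bc18, H3c11 and H3c13) had a median of 0.52, with none called. The 2 tested members with no stem-loop found, H1f0 and H2bc21, had 0.29 and -0.11. These classes also differ in length, and the difference between them was not tested. By position, 6 of 21 tested members on chromosome 13 and 1 of 8 on chromosome 3 were called, with medians of 0.64 and 0.90. Of all genes tested, 4.28% were called higher, and whether calls differ by position was not tested.

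The replacement and variant histones, most of which are made outside S phase from polyadenylated mRNAs, were looked at beside the members. Of 9 tested genes of that list, 2 were called higher and none lower (median log2 fold change 0.21). Over all genes tested, 4.28% were called higher and 7.48% lower. H3f3b, which encodes the replacement histone H3.3, had 64.7, 57.2 and 55.0 CPM in HSALR, against 33.5, 31.9 and 31.4 CPM in WT (log2 fold change 0.87 ± 0.12, edgeR adjusted p = 0.00662). H2aj, an H2A variant, had 10.6, 9.18 and 10.6 CPM in HSALR, against 4.80, 4.96 and 6.31 CPM in WT (log2 fold change 0.92 ± 0.19, edgeR adjusted p = 0.0207). The groups did not overlap in either gene.

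Genes that act with the replication-dependent histones were described as lists. Of 31 tested genes for histone mRNA synthesis, 3′ end processing and decay, edgeR, DESeq2 and limma-voom each called none in either direction. At an unadjusted edgeR p below 0.05, 1 was higher and 4 were lower, 11 of 31 had a positive log2 fold change and the median was -0.08. The most abundant of them were Ybx1, an RNA-binding protein, with 195 ± 40.2 CPM in HSALR and 214 ± 9.56 CPM in WT, and Sympk, the scaffold of the cleavage complex, with 41.2 ± 8.06 CPM in HSALR and 58.0 ± 3.14 CPM in WT (SD, n = 3 each). Slbp, the stem-loop binding protein, was added after its values were seen, and had 8.59, 7.93 and 10.1 CPM in HSALR and 4.77, 6.94 and 8.33 CPM in WT (log2 fold change 0.40 ± 0.23, edgeR adjusted p = 0.261), with overlapping groups.

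Of 29 tested genes of DNA replication and S phase, none was called higher by edgeR (3 at an unadjusted p below 0.05, 1 by DESeq2 and none by limma-voom) and 1 was called lower (median 0.19). That gene was Ccne2, a cyclin of S phase entry, with 3.23, 4.11 and 2.88 CPM in HSALR, against 7.41, 8.40 and 6.98 CPM in WT (log2 fold change -1.16 ± 0.22, edgeR adjusted p = 0.0159). Of 5 tested mitosis genes, 1 was called lower and none higher (1 higher at an unadjusted edgeR p below 0.05, none by DESeq2 or limma-voom). This was Tpx2, a spindle assembly factor, with 1.99, 3.30 and 1.88 CPM in HSALR, against 14.1, 10.7 and 9.73 CPM in WT (log2 fold change -2.26 ± 0.27, edgeR adjusted p = 0.00470). Mki67, the proliferation marker, also added after its values were seen, had 1.61, 0.644 and 2.48 CPM in HSALR and 0.777, 1.06 and 1.11 CPM in WT and was not called (edgeR adjusted p = 0.382). Of 23 tested histone chaperones, 4 were called lower and none higher (median -0.05; none higher at an unadjusted edgeR p below 0.05, nor by DESeq2 or limma-voom). The 4 were Anp32e, the chaperone that removes H2A.Z (log2 fold change -0.69), Nap1l1, an H2A-H2B chaperone (-0.56), and Atrx (-0.54) and Ubn1 (-0.43), which take part in H3.3 deposition. Beside these 3 lists, edgeR called 4.28% of all genes tested higher and 7.48% lower.

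Markers of other cells moved in the same libraries. In bulk muscle, fewer cells of a type and less RNA per cell cannot be told apart. Over all genes tested, edgeR called 4.28% higher and 7.48% lower, DESeq2 8.57% higher and limma-voom 3.35% higher. An unadjusted edgeR p below 0.05 was reached by 31.9% of all genes, either direction. The summed macrophage markers were 720, 245 and 342 CPM in HSALR replicates 1, 2 and 3, against 178 to 192 CPM in WT. Of 11 tested, 5 were called higher by edgeR, 9 by DESeq2 and 4 by limma-voom, with 10 higher at an unadjusted edgeR p below 0.05. The summed fibroblast markers were 6791, 2118 and 3029 CPM in HSALR and 1716 to 1908 CPM in WT. Of 10 tested, 1 was called higher by edgeR, 6 by DESeq2 and none by limma-voom. Of the 10, 7 were higher at an unadjusted edgeR p below 0.05. The summed muscle fibre markers were 117089, 230794 and 181456 CPM in HSALR and 286647 to 325738 CPM in WT, and Atp2a1 was the 1 of 15 that edgeR called, lower. DESeq2 called 4 lower and 1 higher, and limma-voom called 3 lower. At an unadjusted edgeR p below 0.05, 4 were lower and 1 was higher. Markers of satellite cells and myoblasts (1022 to 1804 CPM in HSALR, 1674 to 1798 CPM in WT) had none of 7 called by edgeR, DESeq2 or limma-voom, with 2 higher at an unadjusted edgeR p below 0.05. Lymphocyte markers summed to 6.70 to 12.5 CPM in HSALR and 4.11 to 5.36 CPM in WT, with Ptprc called higher. Neutrophil markers stayed at or under 3.46 CPM in every library, and Ly6g, Mpo, Elane, Camp, Ngp and Retnlg were listed at 0. Erythroid markers summed to 503 to 2127 CPM in HSALR and 435 to 726 CPM in WT, and adipocyte markers to 235 to 1738 CPM in HSALR and 82.0 to 555 CPM in WT, with none called in either list by any of these tools or at an unadjusted edgeR p below 0.05. Endothelial markers summed to 223 to 320 CPM in HSALR and 233 to 269 CPM in WT, with 1 called higher and 1 lower. Their part in the histone result was not tested.

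**Figure D5:**
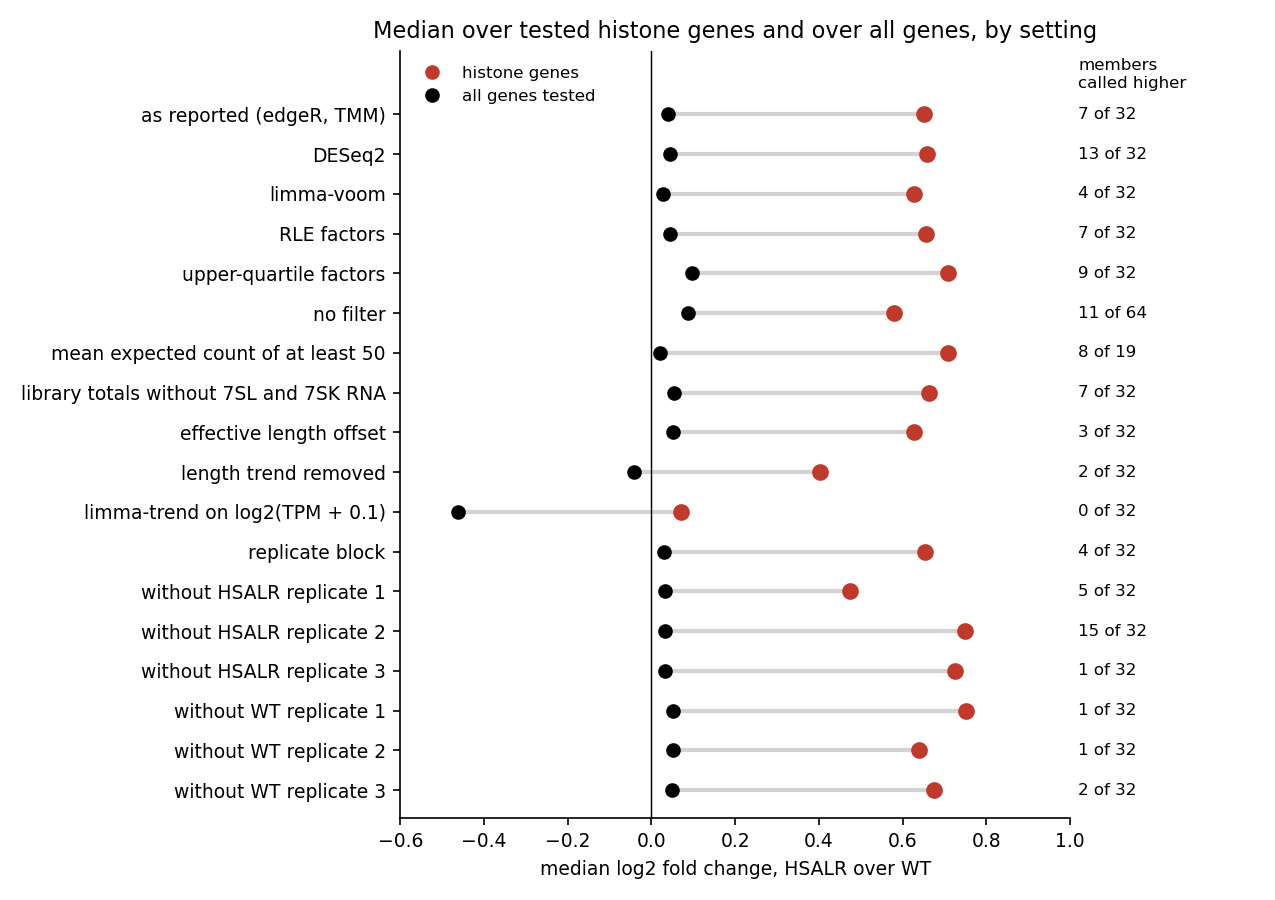
Median log2 fold change of HSALR over WT (x axis) over the members tested and over all genes tested, with 1 line for each setting and the number of members called higher at the right. The histone median lies above that of all genes in all 18 settings, while the number called runs between 0 and 15. Of all genes, 0.339% to 11.1% were called higher in these settings.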

How the data were processed

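The labels describe TRIzol extraction and stranded total RNA libraries depleted of ribosomal RNA. The authors deposited 1 table per sample with an expected count for each gene, RSEM's estimate of its reads after those that fit several genes were divided between them. In the deposited TPM the authors' RSEM run divided these counts by effective length and set each library to the same total, and the deposited FPKM values, also made by the authors with a length correction, were not used. Bowtie2, RSEM 1.3.1 and the build GRCm39 are given in the submitters' processing notes. The annotation release, strand setting and read length are not given in the sources used here, and the study's methods name no test for these libraries.

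Symbols, coordinates and sequences came from GENCODE M39 on GRCm39 (53400 of 53947 genes matched by identifier, 98.99%), and 65 of 66 members with 1 transcript in the tables had the M39 length. Expected counts were rounded, genes kept by filterByExpr and tested with edgeR 4.0.16 (R 4.3.3, limma 3.58.1), by a robust quasi-likelihood F test on TMM-normalised counts with the group as the only term. Each SE was taken from the log2 fold change and the square root of its F statistic. The procedure was tested on simulated counts. Floors cover counting error only, because PCR copies were not marked by molecular identifiers. Sharing was judged on stretches of 75 bases, a length chosen without knowledge of the read length.

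The named genes are all called members, the 4 of each type with the highest mean CPM, H1f0 and H1f10, members at 0, and from each context list the called genes with the 4 lowest p or, with none called, the 2 most abundant. The members and lists were chosen with earlier results of these data known. Other members are named where singled out after their values were seen. The alternatives tried were no filter, upper-quartile and RLE factors, limma-trend on log2(TPM + 0.1), DESeq2 1.42.0, limma-voom, a mean expected count of at least 50, effective length offsets, removal of the loess trend on length (span 0.5), totals without 7SL and 7SK RNA, shared-read sums, a replicate block and each library left out. The summed fits without a library or a length trend were chosen after seeing the data.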

Additional observations from a re-analysis of the deposited data

How the results depend on the processing

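The number of members called higher, 7 of 32, was 13 with DESeq2, 4 with limma-voom, 0 on log2(TPM + 0.1), 3 with the effective length offset, 2 with the length trend removed and 11 of 64 with no filter on low counts, and it lay between 1 and 15 with single libraries left out. RLE factors and totals without 7SL and 7SK RNA left it at 7. Of all genes, 4.28% were called higher, against 8.57% with DESeq2, 3.35% with limma-voom and 0.368% on log2(TPM + 0.1). That share was 1.86% with the effective length offset, 2.37% with the length trend removed and 3.49% with no filter. With single libraries left out it lay between 0.339% and 11.1%. No member was called lower in any setting. With shared reads summed, 3 of 10 features were called, 0 with the length trend removed and 0 to 7 with single libraries left out. Of all features, 319 were called higher with the length trend removed and 42 to 1495 with single libraries left out. The median of 0.65 was 0.070 on log2(TPM + 0.1), where all genes had -0.46. The log2 ratio of type sums in deposited TPM was -0.17 for H1, 0.34 for H2A, -0.063 for H2B, 0.15 for H3 and 0.21 for H4, against 0.33, 0.81, 0.36, 0.84 and 0.76 in CPM. On log2(TPM + 0.1) 19 of 32 log2 fold changes were positive, against 29, and 10 had turned negative, for H1f0 (-0.28), H1f2 (-0.29), H1f4 (-0.060), H2ac25 (-0.31), H2bc3 (-0.0037), H2bc4 (-0.34), H2bc9 (-0.25), H3c11 (-0.31), H4c18 (-0.42) and H4c9 (-0.25), none of them called. With the length trend removed 4 had turned negative, for H2bc4 (-0.0042), H3c11 (-0.093), H4c18 (-0.24) and H4c9 (-0.020). Without HSALR replicate 1, 5 signs turned, all in uncalled members. H3c11 ranged between -0.21 and 0.70 with single libraries left out. The cause was not tested. With the replicate block 4 members were called (H4c8, H4c3, H3c7 and H2ac19; 12.5%, against 1.87% of all genes) and the median was 0.65. Deviations of same-numbered HSALR and WT libraries correlated at -0.02, -0.11 and 0.26, so the numbers were not taken as pairs. With 3 libraries a group and few unique stretches in several H2A and H3 genes, levels of single members are less certain than those of their sums.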
